A study of Mus musculus with 6 samples.

Results

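The genes described here carry glucose and lactate across the cell membrane, run glycolysis, set the balance between the phosphorylated forms of fructose, and build or break glycogen in the mouse heart. The list holds 43 genes, grouped by function and chosen with earlier results of these data known, and every probe annotated to them was taken. Of these, 40 had a probe and 29 had a probe bright enough to test, out of 7579 genes tested. Of the rest, 3 had no probe in the annotation used here, 6 were not detected on any array and 5 were detected on 1 or 2 arrays. The heart draws most of its energy from fatty acids and keeps glucose and its own glycogen as a second fuel that can be raised quickly. Glucose entry depends on the transporters GLUT1 and GLUT4, and the rate of glycolysis is set largely at phosphofructokinase, which a fructose bisphosphate made by the Pfkfb enzymes activates and which fructose bisphosphatase works against. Glycogen is broken down by glycogen phosphorylase, which phosphorylase kinase, a complex of alpha, beta and gamma subunits with calmodulin, switches on.

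Hearts came from 6 female C57BL/6J mice aged 20 weeks, with 1 array for each mouse, and RNA was hybridised to Illumina bead arrays. The 3 control mice were Nelf-b f/f, homozygous for a floxed allele of Nelfb, a subunit gene of the complex that holds RNA polymerase II paused near promoters. The 3 knockout mice were Nelf-b f/f; CreER, with the same floxed alleles and a tamoxifen-activated Cre recombinase. All of them received tamoxifen at 8 weeks, ate regular chow and were fasted for 5 hours before harvest. The recombinase was present in the knockouts alone, so its effect and that of the lost gene cannot be told apart, and the labels give neither its promoter nor the deleted exons. The sample records and the column headers of the unnormalized intensities name the groups in opposite ways. Groups here follow the sample records, and with the other naming every sign below turns.

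The mean signal before normalization ran from 169.8 to 310.3 per array, and 38.8% to 43.8% of probes were detected. Nelfb, the targeted gene, had a normalised signal of 7.06 ± 0.04 in controls and 5.44 ± 0.03 in knockouts (log2, SD, n = 3 each), with no overlap. Its log2 difference of -1.61 ± 0.13 had a limma adjusted p of 0.000183, and was -0.74 without background correction. The floxed gene was thus lower in the knockouts of the sample records, and with the naming of the column headers it would be higher in the knockouts. Control array 1 stood apart on the second principal component over all genes, at 18.71 against -8.55 to 1.64 for the others. Genes of cardiomyocytes had a summed linear signal of 127249 to 134192 in controls and 125145 to 134267 in knockouts over the 8 of 10 markers tested, so RNA of cardiomyocytes was present in both groups. The sum was carried by 6 genes that read between 14.05 and 14.62 on the log2 scale, near its top, and says little of smaller shifts. Tnni3, cardiac troponin I, read 9.27, 10.43 and 10.90 in control hearts and 9.31, 8.91 and 9.22 in the knockouts (log2). Its groups overlapped, and the difference of -1.05 ± 0.32 (SE) had a limma adjusted p of 0.0948.

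Among the 29 genes tested, Pfkfb2 rose in the knockout hearts and Fbp2, Phkg1 and Phka1 fell, while 25 did not pass the test. A gene passes, here and below, with a Benjamini-Hochberg adjusted p below 0.05 from limma over all 7579 genes. Of all genes tested, 4.25% passed, 2.24% as higher and 2.01% as lower, against 13.8% of the 29. The difference was below 0 for 21 of the 29 and above 0 for 8, against 3722 and 3857 of all 7579 genes. The median of the 29 was -0.15 on the log2 scale, where the median over all genes was 0.01. The groups did not overlap for 12 of the 29, against 24.9% of all genes. Of these 12, 9 had the knockouts below, as did 11.4% of all genes, and 3 had them above, as did 13.5%. The list was chosen with earlier results of these data known, so these shares describe it and do not test it. All counts and sizes in bulk tissue share a limit: fewer cells of a type and less RNA per cell cannot be told apart. The count of 4 was 2 with median scaling of the arrays, which left Fbp2 and Phkg1. In that setting limma gave all 29 genes the same SE of 0.31, so a call there followed the size of the difference alone.

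**Figure D1:**
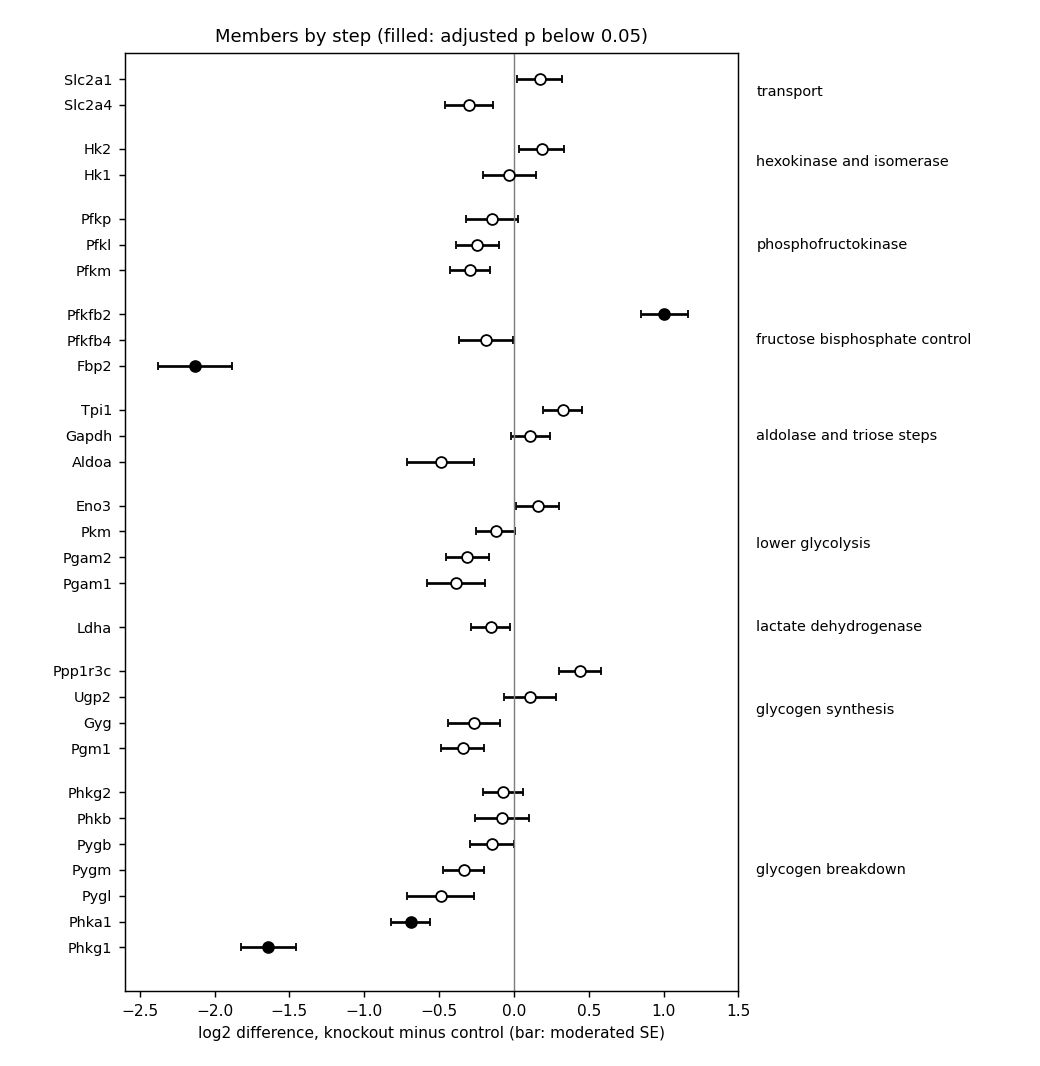
Log2 difference in normalised signal, knockout minus control (horizontal axis), for the 29 genes tested, grouped by step, with limma's moderated standard error as bars and filled points for an adjusted p below 0.05. Fbp2 at -2.13, Phkg1 at -1.64, Phka1 at -0.69 and Pfkfb2 at 1.01 are the filled points, and the other genes lie between -0.49 and 0.44.

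Among enzymes that make or remove fructose bisphosphates, Fbp2 fell and Pfkfb2 rose in the knockout hearts. Fbp2, the fructose bisphosphatase of muscle, which reverses the phosphofructokinase reaction, had normalised log2 signals of 7.92, 8.38 and 8.91 in control hearts 1 to 3 and 6.69, 6.02 and 6.09 in knockout hearts 1 to 3. Every control heart lay above every knockout heart. The group means were 8.40 ± 0.50 and 6.27 ± 0.36 (SD, n = 3 each), and Fbp2 was 4.38-fold lower in the knockouts, a log2 difference of -2.13 ± 0.25 (SE) with a limma adjusted p of 0.000955. It passed under all 16 alternative settings, with a difference between -2.37 and -1.36, the smaller size without background correction. Fbp1, the isoform of liver, was not detected on any array.

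Pfkfb2 encodes the Pfkfb isoform known from heart, a bifunctional enzyme whose kinase makes the fructose bisphosphate that activates phosphofructokinase. Its signals were 7.78, 7.95 and 7.63 in control hearts and 8.87, 8.97 and 8.54 in the knockouts (log2, hearts 1 to 3). All knockout hearts were higher than all controls, by more than the spread within either group. The means were 7.79 ± 0.16 and 8.79 ± 0.23 (SD, n = 3 each), a 2.01-fold rise or a log2 difference of 1.01 ± 0.16 (SE), with a limma adjusted p of 0.00598. The rise did not pass with median scaling, where the difference was 0.998 and the limma adjusted p 0.116. The difference hardly changed there, but its SE was 0.31, against 0.16 in the main fit. A further Pfkfb2 probe was not detected on enough arrays to test.

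Pfkfb4, another isoform of the same enzyme, had a log2 difference of -0.19 (95% interval -0.58 to 0.21) and was not called. Set against Pfkfb4 within each array, Pfkfb2 was higher in knockouts by 1.19 on the log2 scale, with no overlap between the groups (exact permutation test, p = 0.1, the smallest that 3 against 3 arrays allow, and 0.12 adjusted over the 6 such pairs examined). These 6 pairs were chosen after their values were seen, so the ratio restates the call of Pfkfb2 and does not test it anew. Pfkfb3, the isoform known for a high kinase activity, was not detected on any array, and no probe for Pfkfb1 was in the annotation used here.

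**Figure D2:**
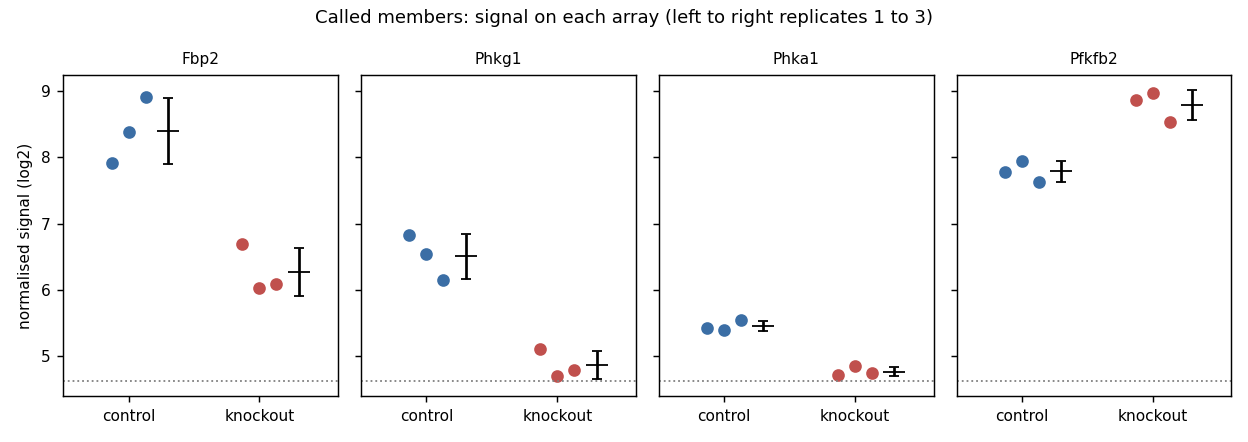
Normalised signal (log2, vertical axis) of Fbp2, Phkg1, Phka1 and Pfkfb2 on each of 3 control and 3 knockout arrays, as points in the order of replicates, with the group mean and SD beside them. The dotted line at 4.62 is the lowest signal of a detected probe averaged over the arrays. The groups do not overlap for any of the 4 genes, and the knockout values of Phkg1 and Phka1 lie close to the dotted line.

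All 7 genes of glycogen breakdown had a lower mean in the knockout hearts, as did 3722 of all 7579 genes. Phkg1 and Phka1 passed the test, and the other 5 did not. Phkg1 encodes the catalytic gamma subunit of phosphorylase kinase in muscle. Its log2 signals were 6.83, 6.53 and 6.15 in control hearts and 5.11, 4.70 and 4.79 in the knockouts. The groups did not overlap, with means of 6.51 ± 0.34 and 4.87 ± 0.21 (SD, n = 3 each). The knockout mean was close to the detection limit, 4.62 as a mean over arrays of the lowest detected signal. The log2 difference was -1.64 ± 0.19 (SE), or 3.12-fold, with a limma adjusted p of 0.000931. Without background correction it was -0.61, and it still passed (adjusted p = 0.00666).

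Phka1 encodes the regulatory alpha subunit of the muscle enzyme. Its signals were 5.42, 5.40 and 5.54 in control hearts and 4.71, 4.84 and 4.75 in the knockouts (log2). The groups were narrow and did not overlap, with means of 5.46 ± 0.08 and 4.77 ± 0.07 (SD, n = 3 each). The log2 difference was -0.69 ± 0.13 (SE), or 1.61-fold, with a limma adjusted p of 0.0166. A pair of further Phka1 probes, annotated to another RefSeq transcript of the gene, were detected on 1 array each and not tested. They read 4.25 to 4.47 in control hearts and 4.25 to 4.77 in knockout hearts. Their control readings were already below the detection limit, so these probes could not show a fall, and the fall rests on 1 probe. The call was the least stable of the 4. It was lost without background correction (-0.19, adjusted p = 0.0774), with median scaling (adjusted p = 0.644), and without control array 2 (adjusted p = 0.0546), control array 3 (0.0743), knockout array 1 (0.0521) or knockout array 3 (0.0533).

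The other subunit genes of phosphorylase kinase differed in their readings. Phkg2, the gamma subunit known from liver and testis, had a log2 difference of -0.07 (95% interval -0.36 to 0.21). The shared beta subunit gene Phkb had -0.08 (-0.48 to 0.32), or 0.053 without knockout array 1. The ratio of the Phkg1 to the Phkg2 signal within an array had a log2 difference of -1.57, knockout minus control, with no overlap between groups. The exact permutation test gave p = 0.1, the smallest possible here, and 0.12 adjusted over the 6 pairs examined. Phka2, the alpha subunit of liver, which was taken from a list of related genes, had a difference of 0.26 (-0.08 to 0.61). The ratio of Phka1 to Phka2 had a log2 difference of -0.95 (exact permutation p = 0.1, and 0.12 adjusted), again with no overlap. Both pairs were chosen after their values were seen, so these ratios restate the calls of Phkg1 and Phka1 and do not test them anew. With so few arrays this test could not pass.

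Calmodulin is the delta subunit of the enzyme and also serves many others. Its gene Calm2 had log2 signals of 6.55, 6.85 and 7.08 in control hearts and 5.96, 5.78 and 6.34 in the knockouts. It fell by 0.80 ± 0.19 (SE) on the log2 scale, with a limma adjusted p of 0.0370. Without background correction the difference was -0.39, still called. The call did not hold with median scaling (adjusted p = 0.340), with no detection filter (0.113), or without control array 2 (0.110), control array 3 (0.139), knockout array 1 (0.0988) or knockout array 2 (0.132). Calm3 had -0.60 and an adjusted p of 0.0901.

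**Figure D3:**
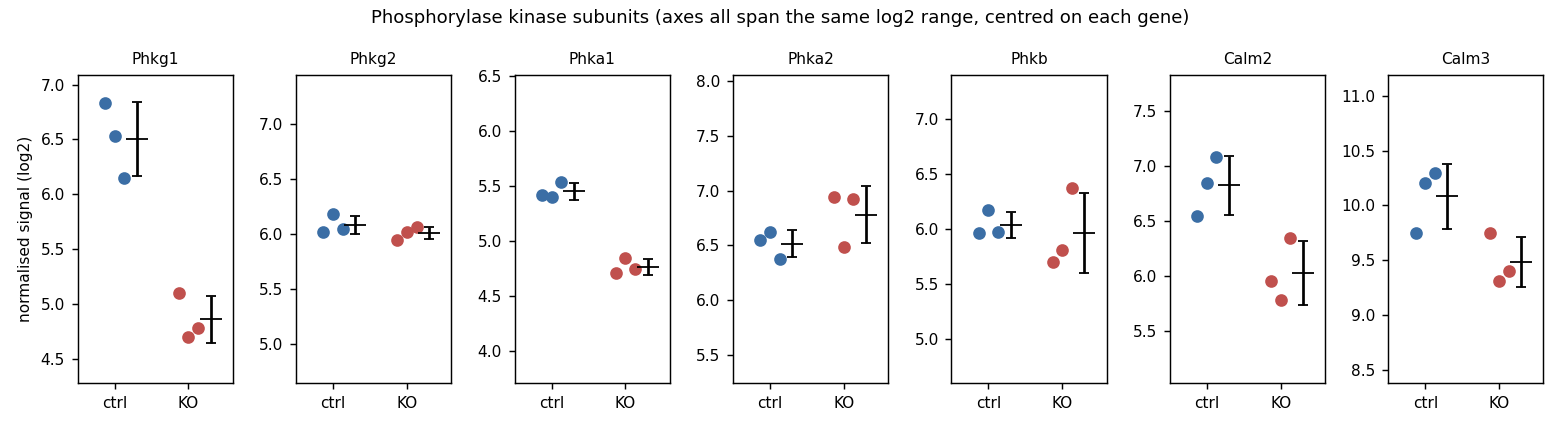
Normalised signal (log2, vertical axis) of genes for phosphorylase kinase subunits on each control (ctrl) and knockout (KO) array, as points in the order of replicates, with the group mean and SD. The axes span the same range but are centred on each gene. Phkg1, Phka1, Calm2 and Calm3 are lower in all 3 knockouts, Calm3 without passing the test, and the groups of Phkg2, Phka2 and Phkb overlap.

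The phosphorylase genes themselves, which the kinase acts on, were not called. Pygm, the muscle isoform, read 9.28, 9.09 and 9.05 in control hearts and 8.87, 8.82 and 8.72 in the knockouts (log2). The groups did not overlap, but the difference of -0.34 ± 0.14 (SE) had an adjusted p of 0.190, and passed in 1 of 16 alternative settings, without background correction (adjusted p = 0.0489). Pygb, the brain isoform, had -0.14 and Pygl, the liver isoform, -0.49, with overlapping groups. Pygl was low on control array 1, at 4.70 against 5.67 and 5.46 on the other controls, and without that array its difference was -0.78 with an adjusted p of 0.0285. The difference was -0.29 without control array 2 and -0.14 without background correction, and passed in 1 of 15 alternative settings. Its knockout signals of 4.74, 4.99 and 4.63 lay close to the detection limit.

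Promoter sequences are shown for the 4 genes that passed, to set the 3 that fell beside the 1 that rose. They are the 250 bases before the RefSeq start site on GRCm38.p6, all on the minus strand and written 5′ to 3′. Capitals mark matches on either strand to the letters CACGTG (an E-box) or CCAAT. For Pfkfb2, RefSeq lists 3 start sites, and the window shown is the 1 of these that holds such a match.
Fbp2, chr13:62858401-62858650: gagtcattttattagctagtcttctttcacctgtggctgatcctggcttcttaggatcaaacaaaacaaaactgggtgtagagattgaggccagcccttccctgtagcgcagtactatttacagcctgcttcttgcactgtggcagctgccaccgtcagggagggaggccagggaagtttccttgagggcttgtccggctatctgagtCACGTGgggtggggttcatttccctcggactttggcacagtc
Phkg1, chr5:129879089-129879338: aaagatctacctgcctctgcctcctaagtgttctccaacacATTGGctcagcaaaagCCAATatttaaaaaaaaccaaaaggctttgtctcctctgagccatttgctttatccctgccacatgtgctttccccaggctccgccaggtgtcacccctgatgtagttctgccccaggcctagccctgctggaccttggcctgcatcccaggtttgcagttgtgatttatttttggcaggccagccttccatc
Phka1, chrX:102644247-102644496: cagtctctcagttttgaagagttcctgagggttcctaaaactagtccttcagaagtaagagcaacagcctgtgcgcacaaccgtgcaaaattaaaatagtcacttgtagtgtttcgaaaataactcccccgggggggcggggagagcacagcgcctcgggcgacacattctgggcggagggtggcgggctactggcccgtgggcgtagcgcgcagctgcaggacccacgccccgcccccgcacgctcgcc
Pfkfb2, chr1:130715822-130716071: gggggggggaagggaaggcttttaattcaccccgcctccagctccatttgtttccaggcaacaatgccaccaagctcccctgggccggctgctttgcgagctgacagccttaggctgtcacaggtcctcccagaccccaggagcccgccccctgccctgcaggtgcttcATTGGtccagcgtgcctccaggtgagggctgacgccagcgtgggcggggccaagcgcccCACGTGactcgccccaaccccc
The letters CACGTG lay at -42 to -37 relative to the start site of Fbp2, which fell, and at -22 to -17 relative to that of Pfkfb2, which rose, counting back from the last base of each window. Of 32817 promoter windows of this length, 6.02% held them, as did 5 of the 39 windows of genes tested here. The letters CCAAT were in the Phkg1 window at 2 places and once in that of Pfkfb2, and 33.8% of all windows held them. The letters TATAAA (12.4% of all windows), AGGTCA (14%) and CATTCC (12.6%) were in none of the 4 windows shown. Each motif was searched on both strands, none of the matches shown overlapped another, and Phka1 held none of these letters in its window.

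Genes of glycogen synthesis were not called, and the reading closest to the threshold was a higher one. Ppp1r3c encodes a subunit that brings protein phosphatase to glycogen and so favours its synthesis. It read 10.46, 10.53 and 10.73 in control hearts and 11.05, 11.09 and 10.90 in the knockouts (log2), with every knockout above every control. The difference was 0.44 ± 0.14 (SE), or 1.36-fold, with a limma adjusted p of 0.105. It passed under 4 of 16 alternative settings: without background correction (adjusted p = 0.0218), in the deposited value table (0.0254), with an offset of 50 (0.0267) and with a trended and robust variance prior (0.0141).

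Pgm1, the phosphoglucomutase that links glucose phosphate to glycogen, had signals of 9.08, 9.44 and 9.33 in control hearts and 8.98, 8.85 and 9.0 in the knockouts (log2). Its groups did not overlap, and the difference of -0.34 had an adjusted p of 0.207. Ugp2, which makes the UDP-glucose used for glycogen, had a difference of 0.11. Glycogenin (Gyg), the protein primer of glycogen, had 2 detected probes of opposite sign, neither called. The brighter read 7.40, 7.69 and 7.48 in control hearts and 6.91, 7.41 and 7.46 in the knockouts (log2), a difference of -0.27, or -0.09 without knockout array 1. The other read 7.18, 7.10 and 6.89 in control hearts and 7.12, 7.44 and 7.28 in the knockouts, a difference of 0.22. The groups overlapped on both probes. The genes of glycogen synthase (Gys1) and the branching enzyme (Gbe1) could not be tested: Gys1 was detected on 1 of 6 arrays at most, and Gbe1 and the phosphoglucomutase gene Pgm2 on none.

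For glucose entry, the insulin-responsive transporter GLUT4 and the basal transporter GLUT1 were not called. Slc2a4, the GLUT4 gene, read 9.28, 9.31 and 9.35 in control hearts and 9.19, 8.69 and 9.17 in the knockouts (log2). All knockouts were below all controls, with knockout array 2 the lowest, and the difference of -0.30 ± 0.16 (SE) had an adjusted p of 0.317. Without knockout array 2 the difference was -0.14. Slc2a1, the GLUT1 gene, had a difference of 0.17 (95% interval -0.16 to 0.50). The lactate and pyruvate carriers Slc16a1 and Slc16a3 and the high-affinity glucose transporter Slc2a3 were detected on 2 arrays at most and not tested.

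Hexokinase traps glucose in the cell by phosphorylating it. Hk2, the hexokinase of insulin-sensitive muscle, read 11.84, 11.82 and 11.54 in control hearts and 12.01, 11.72 and 12.02 in the knockouts (log2), with overlapping groups. Its difference was 0.19 (95% interval -0.15 to 0.52), and that of Hk1 was -0.03 (-0.42 to 0.36). No probe for the isomerase gene Gpi1 was in the annotation used here.

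The 3 phosphofructokinase genes all had differences below 0 for the probe that stood for them, and none was called. Pfkm, the muscle isoform, read 12.76, 12.93 and 12.98 in control hearts and 12.67, 12.60 and 12.52 in the knockouts (log2). The groups did not overlap, and the difference of -0.29 ± 0.13 (SE) had an adjusted p of 0.247. Pfkl, of liver, had -0.24 and Pfkp, of platelets, -0.15.

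The 3 detected Pfkm probes, all annotated to the same RefSeq transcript, disagreed. A second bright probe had -0.29. The dimmest, which read 6.49, 6.23 and 6.23 in control hearts and 6.75, 6.72 and 7.23 in the knockouts (log2), was higher in all knockouts, by 0.59, with an adjusted p of 0.0826 in the limma fit of all 10407 detected probes. Of these probes 3.8% passed, and the groups did not overlap for 24.3%. The dimmest probe relative to the brightest was 0.88 higher in knockouts on the log2 scale, with no overlap. The exact permutation test gave p = 0.1, the smallest possible here, and 0.12 adjusted over the 6 pairs examined. This pair was chosen because the signs of its probes differed, so the value describes the disagreement and does not test it. Averaged over its 3 probes, the Pfkm difference was 0.0015 on the log2 scale. The sign for this gene therefore depends on the probe.

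**Figure D4:**
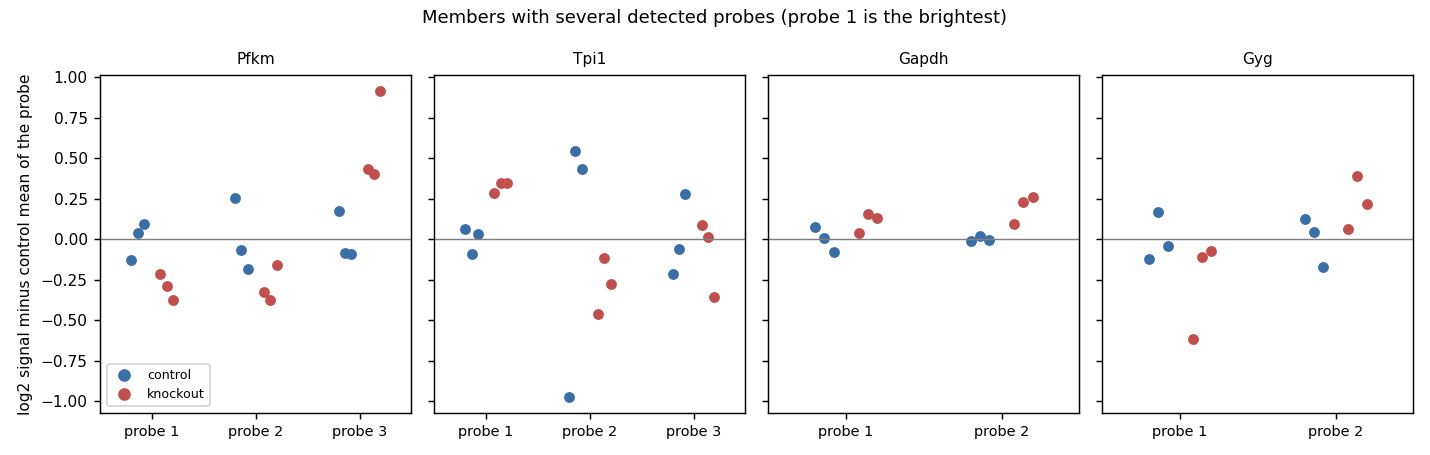
Log2 signal of each detected probe relative to its own control mean (vertical axis), for the 4 genes of the list with more than 1 detected probe, with controls on the left and knockouts on the right of each position. For Pfkm, the knockouts lie below the controls in the brightest probe and above them in the dimmest. For Tpi1, control array 1 lies far below the other controls in probe 2.

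The middle steps of glycolysis were not called. Triose phosphate isomerase (Tpi1) read 12.80, 12.65 and 12.77 in control hearts and 13.02, 13.08 and 13.08 in the knockouts (log2) on its brightest probe, with no overlap, a difference of 0.33 ± 0.13 (SE) and an adjusted p of 0.184. It passed without background correction (adjusted p = 0.0216), in the deposited value table (0.0232) and with a trended and robust prior (0.0295). Another bright Tpi1 probe went the other way, by -0.28, at 9.45, 10.97 and 10.86 in control hearts and 9.97, 10.31 and 10.15 in the knockouts, with control array 1 the lowest. A further Tpi1 probe, close to the detection limit and detected on 4 arrays, had -0.09. The mean of all these Tpi1 probes, each with the same weight, differed by -0.014 between the groups on the log2 scale.

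Aldoa, the aldolase of muscle, which splits fructose bisphosphate, read 11.76, 12.69 and 12.58 in control hearts and 12.04, 11.82 and 11.70 in the knockouts (log2). Control array 1 lay within the range of the knockouts. The difference was -0.49 ± 0.22 (SE, adjusted p = 0.244), and it was -0.78 with an adjusted p of 0.0241 without control array 1 and -0.32 without control array 2. Gapdh, often used as a reference gene, had a difference of 0.11 (95% interval -0.18 to 0.39), and its second probe had 0.19. Aldoc was detected on 1 array and Pgk1 on none. Gapdh, Tpi1, Aldoa and Pgam1 have processed pseudogenes and near-identical copies, so their probes may also bind other transcripts.

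The lower steps of glycolysis were not called either. The muscle isoforms Pgam2, a phosphoglycerate mutase, and Eno3, an enolase, had differences of -0.31 and 0.16. Pgam2 read 11.85, 12.11 and 12.24 in control hearts and 11.73, 11.77 and 11.77 in the knockouts (log2), with no overlap and an adjusted p of 0.248. Eno3 read 12.96, 12.99 and 12.84 in control hearts and 13.22, 12.89 and 13.16 in the knockouts, with overlap. Pgam1, the isoform of brain and other tissues, had -0.39, which was -0.19 without knockout array 1 and -0.59 without knockout array 3, and pyruvate kinase (Pkm) had -0.12 (95% interval -0.41 to 0.17). The Eno1 entry matched through an older symbol to a probe for Eno1b, a near-identical copy, which was detected on 2 arrays and not tested.

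Ldha, a lactate dehydrogenase subunit gene, read 11.78, 11.84 and 11.91 in control hearts and 11.77, 11.60 and 11.70 in the knockouts (log2). The highest knockout lay just below the lowest control. The difference of -0.15 (95% interval -0.44 to 0.13) had an adjusted p of 0.554. No probe for Ldhb, the heart subunit, was in the annotation used here, so the 2 subunits could not be compared.

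Phkg1, Phka1 and Fbp2 encode forms known from skeletal muscle, so markers of that tissue were read beside them. Of 15 skeletal muscle markers, 13 had a probe and 8 of these (Myh1, Myh4, Tnnt3, Tnnc2, Actn3, Atp2a1, Pvalb and Casq1) were not detected on any array. Mylpf and Mybpc1 were detected on 1 array each. Of the 3 tested, the myosin light chain gene Myl1 read 10.10, 10.24 and 9.57 in control hearts and 8.28, 8.48 and 8.40 in the knockouts (log2). It fell by 1.58 ± 0.18 (SE) on the log2 scale, with a limma adjusted p of 0.000931. Mybpc2 went the other way, with a difference of 0.62 (limma adjusted p = 0.0949) and every knockout above every control. Tnni2, close to the detection limit, had -0.12. The summed linear signal of the 3, most of it from Myl1, was 868 to 1303 in controls and 450 to 518 in knockouts, on the same side as Fbp2, Phkg1 and Phka1.

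Markers of the other cell types were read in the same way. The summed linear signals of the 3 tested of 4 smooth muscle markers, most of each from Acta2, were 2558 to 3342 in controls and 1321 to 1957 in knockouts. Acta2 was the member that fell, by 0.84 ± 0.18 on the log2 scale (limma adjusted p = 0.0299), while the differences of Tagln and Myh11 were -0.10 and 0.01. The 2 adipocyte markers tested of 5, near the detection limit, summed to 48 to 58 in controls and 60 to 69 in knockouts. The summed signals of fibroblast, endothelial, macrophage and erythroid markers overlapped between the groups. Those of the 2 atrial markers tested of 5 were 4889 to 7226 in controls and 4549 to 19415 in knockouts, and single arrays stood apart. Myl4, an atrial myosin light chain, read 10.23 on knockout array 1 and at most 5.95 elsewhere, and the natriuretic peptide gene Nppa read 14.24 on knockout array 2 and at most 12.81 elsewhere (log2). The part of skeletal muscle, smooth muscle, adipocytes and atrial tissue in the differences was not tested.

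Beyond the 43 genes, 5 lists of related genes held 41 tested genes of 76, of which 1 rose and 1 fell, or 4.88% against 4.25% of all genes. Gpd1 encodes the cytosolic glycerol phosphate dehydrogenase, which draws a triose from glycolysis towards glycerol and the shuttle of reducing equivalents. It read 5.43, 5.52 and 5.43 in control hearts and 6.16, 6.47 and 6.62 in the knockouts (log2). The groups were well apart, with a rise of 0.95 ± 0.15 (SE), or 1.94-fold, and a limma adjusted p of 0.00598. The rise was 0.39 without background correction and did not pass with median scaling (adjusted p = 0.282). Gpd2, the mitochondrial partner of Gpd1 in that shuttle, had -0.29, with an adjusted p of 0.272.

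Calm2 was the gene of these lists that fell. Acid alpha-glucosidase (Gaa), which degrades glycogen in lysosomes, had -0.58 and an adjusted p of 0.0608 and was not called. In the list of hexose transport and its control, 0 of 6 were called, and Slc2a10 (-0.23) and Txnip (-0.18) had the smallest p. In the pentose phosphate and hexosamine branches 0 of 8 were called. Gfpt2, an entry enzyme of the hexosamine branch, had 0.35, and transketolase (Tkt) had -0.43, or -0.84 with an adjusted p of 0.0225 without control array 1. The Tkt difference was -0.33 without control array 2 and -0.13 without control array 3, and it passed in 1 of 16 alternative settings. Among hypoxia targets outside glycolysis 0 of 6 were called. The prolyl hydroxylase gene Egln3 came closest, at -0.68 with an adjusted p of 0.0519, and passed in 6 of 16 alternative settings, and Ndrg1 had -0.32.

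**Figure D5:**
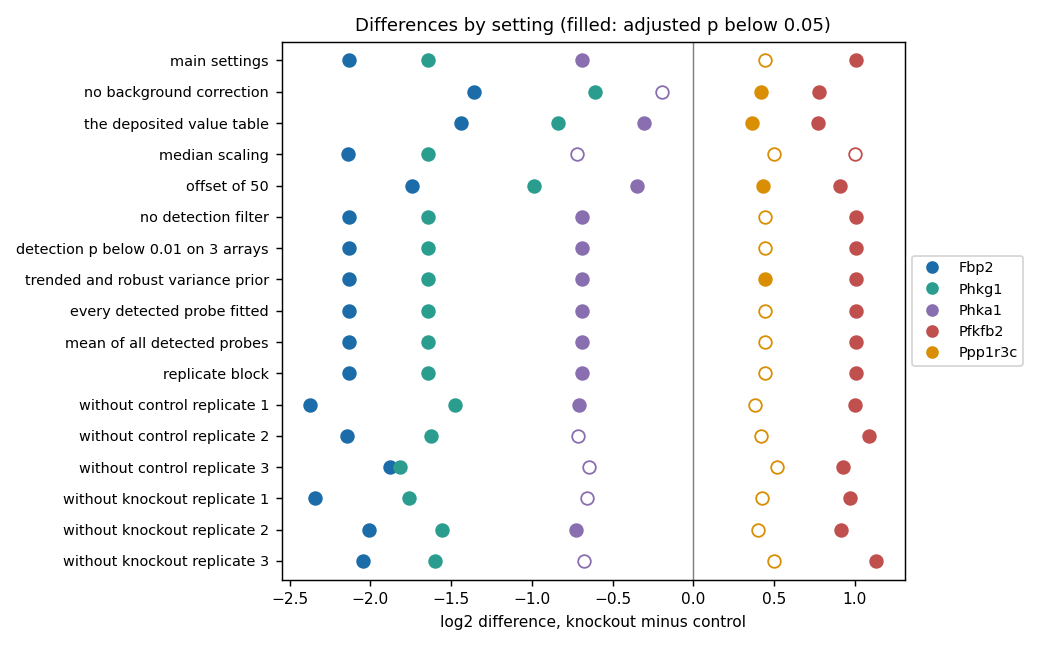
Log2 difference, knockout minus control (horizontal axis), of the 4 genes that passed and of Ppp1r3c under the main settings and 16 alternatives (rows), with filled points for an adjusted p below 0.05. Fbp2 and Phkg1 are filled in every row, Pfkfb2 in all but median scaling, Phka1 in 10 of the 16 alternatives and Ppp1r3c in 4.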

How the data were processed

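Heart RNA of 6 mice was measured on Illumina bead arrays. The deposited intensity values that were not normalized stand beside a deposited detection p-value per probe and array, per the file headers. The authors' value table holds intensities of the same arrays on a linear scale, with 1 shared distribution and no centring, by a method not given in the sources used here. GenomeStudio is named in the submitters' processing notes, with no version.

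Arrays of the first table were keyed to the sample records by their ranks over all probes, which matched 1 column of the value table each (Spearman rho of 1.0, and at most 0.855 for any other column). In all 6 cases the matching record carried the other group name and the same replicate number. Of 25696 probes, 23977 had 1 gene symbol, 0 had several and 1719 are unnamed here; 23961 symbols equalled the current RefSeq symbol of their gene identifier. Member genes were matched by current symbol, then by an older symbol where the current one had no probe.

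neqc (limma 3.58.1, R 4.3.3, offset 16) corrected the background and put the arrays on 1 log2 distribution. A probe was kept where 3 of 6 arrays or more had a detection p under 0.05, and the brightest stood for its gene. limma (lmFit, eBayes, 2-sided) tested 7579 genes, knockout minus control; the script was tested on simulated data. Of the 43 genes, values are given on every array for those that passed, for non-overlapping groups with a difference of at least 0.5, for probes that disagree, and otherwise for the brightest gene of a step; further genes are shown beside them where their values bear on these, chosen after their values were seen. From each related list, genes that passed are named, or else the 2 with the smallest p; Calm3, Gaa, Phka2 and Gpd2 were added after their values were seen. Errors of differences are moderated SEs. The members and lists were chosen with earlier results of these data known. The number of arrays limits the precision. Python 3.11.15 and matplotlib 3.10.9 drew the plots.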

Additional observations from a re-analysis of the deposited data

How the results depend on the processing

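The alternatives were median scaling, no background correction, an offset of 50, the values the authors deposited, other detection filters, another variance prior, other ways of using probes, the replicate block and leaving out each array. Of 463 values of single genes of the list under an alternative, 438 kept sign and side of the threshold, 10 gained a call, 7 lost 1 and 8 changed sign, each for a gene that was not called. The cause of these shifts was not tested. With median scaling, limma gave each tested gene of the list, and Calm2 and Gpd1, the same SE of 0.309. A call in that setting therefore followed the size of the difference alone. Calls over all genes numbered 322, and 554 without background correction, 589 in the value table, 54 with median scaling, 558 at an offset of 50, 142 when unfiltered, 645 with a trended and robust prior and 171 with the replicate block, and ran from 100 to 401 with 1 array left out; without control replicate 1, 168 were higher and 233 lower, against 170 and 152. Calls among the 29 genes numbered 4 (1 higher, 3 lower), or 2 with median scaling (0 and 2), and 3 to 6 with 1 array left out (5 of the 6 lower without control replicate 1). They numbered 6 without background correction, in the value table and with the trended prior (3 higher and 3 lower each), and 5 at an offset of 50 (2 and 3). Calls in the related lists numbered 2, and 4 without background correction, 5 in the value table, 5 with the trended prior or an offset of 50, 0 with median scaling, 1 when unfiltered, and 1 to 7 with 1 array left out. With 1 array left out, signs turned for Hk1 (-0.20 to 0.062, above 0 without knockout replicate 3 or either of control replicates 2 and 3), Pfkp (-0.28 to 0.014, above 0 without knockout replicate 1), Phkb (-0.29 to 0.053, likewise), Ugp2 (-0.030 to 0.28, below 0 without knockout replicate 2) and Txnip (-0.29 to 0.0081, above 0 without knockout replicate 3). As means of all probes, Pfkm (0.0015) and Tpi1 (-0.014) turned. No pairing by replicate number was seen: deviations from the group means of same-numbered arrays correlated at -0.053, -0.00036 and -0.062 over genes. Those of arrays with other numbers correlated at -0.0077 to 0.059. With so few arrays this check cannot exclude a pairing. With the replicate block the 29 genes still held 4 calls and the related lists 2. No slide is named in the sources used here, so a fit with the slide as a block was not run. Arrays left out were removed after normalization of all 6. Probes near the detection limit, such as those of Phkg1 and Phka1 in knockouts, give differences whose size depends on the background correction.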
